A study of Rattus norvegicus with 44 samples.

Results

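The highest nickel and chromium exposures of a rat liver cell study were set directly against each other, over all genes of the array: cells held in 400 µM nickel and cells held in 10 µM chromium, each for 24 h. The cells were H4-II-E-C3, a line from a rat hepatoma that was cultured with fetal bovine serum, then washed and exposed in DMEM without serum. Nickel was given as NiCl2 and chromium as Na2Cr2O7, a hexavalent form, and the controls were cultures of the same line grown without metal. Concentrations are those of the salts, so 10 µM refers to Na2Cr2O7 and not to chromium atoms. The concentrations are not equal, since each metal's series was set by cell viability assays. The study chose the highest concentration of each metal at the same level of cell death in those assays. The comparison is therefore between those exposures and not between equal amounts of metal. Expression was measured on Affymetrix rat whole-genome arrays, with 4 arrays per exposure that the labels call biological replicates. The comparison holds 8 of the 44 arrays, 4 of nickel 400 µM and 4 of chromium 10 µM. The other arrays are 8 controls and 28 arrays of lower concentrations or of cadmium.

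The 8 arrays were chosen by an order of the sample titles and not by the titles as they stand. The 4 titles that mention a repeated microarray were placed last, and the titles were then given to the data columns in turn. This order gave the study's condition means of 992 probe sets with a median difference of 2.95e-06 and a largest difference of 7.5e-06 on the log2 scale, whereas the titles as they stand gave 0.164 and 4.32. Those means come from the same arrays, so this is a description of how members were found and no finding about them. The order moves 24 of the 44 titles. It moves none of the nickel 400 µM, chromium 10 µM or control arrays of replicates 1 and 2. All p-values and calls below therefore come from replicates 1 and 2, in which the titles and the order say the same. Replicates 3 and 4 are given as values beside them, and for some lists with the counts of the same fit made on those replicates, which rests on moved titles. With 2 replicates per exposure the spread is poorly known, and it was pooled over 7 conditions in limma.

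Nickel ions are known to displace iron in the prolyl hydroxylases that mark the transcription factor HIF-1α for breakdown, so that cells in normal oxygen switch on genes of the hypoxia response, such as glucose transporters and glycolytic enzymes. Hexavalent chromium enters cells on anion carriers and is reduced inside them to forms that bind DNA, and it is known for DNA damage and stalled replication. Hepatocyte-like cells also make plasma proteins and enzymes of lipid, amino acid and drug metabolism. The labelled cell type was checked first. Of 10 hepatocyte markers tested, the means over 4 nickel arrays lay between 7.70 (Afp) and 14.24 (Alb) on the log2 scale, and Alb averaged 14.50 in chromium. Another marker, Apoa1, was too dim to be tested, at 5.20 in nickel and 5.16 in chromium. Of 16 markers of blood, endothelial, stromal and bile duct cells with a probe set, 2 were bright enough to be tested, Hbb and Acta2. Acta2, an actin of smooth muscle and stromal cells, was higher in nickel by 0.74 (SE 0.13, adjusted p = 0.00067), with pair differences of 0.92, 0.55, 0.01 and 0.02 in replicates 1 to 4.

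At a false discovery rate (FDR) of at most 0.001 and a difference of at least 1.8-fold, 490 of 15521 probe sets were higher in nickel than in chromium (3.16% of all tested) and 436 were lower (2.81%). These 926 calls (5.97%) include 300 named genes that were higher and 336 that were lower. At an adjusted p under 0.05 without a fold limit, 3719 probe sets were higher (24.0%) and 3941 lower (25.4%), 49.4% together, and each gene list below is read against these shares. The median difference over all probe sets tested was -0.003 on the log2 scale. Of 8934 genes, each taken from its brightest probe set, 21.2% were higher and 31.5% lower at an adjusted p under 0.05, with a median of -0.06.

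In such bulk samples, fewer cells of a kind and less RNA per cell cannot be told apart. Placed against the controls, which both metals share, most calls either had nickel alone past 1.8-fold from control or had neither metal past it. Of the 490 higher probe sets, 252 lay at least 1.8-fold above control in nickel with chromium within 1.8-fold, 25 were lower in chromium with nickel within 1.8-fold and 195 had both metals within 1.8-fold of control. Of the 436 lower probe sets, 185 lay below control in nickel alone by this measure, 38 lay above control in chromium alone, and 186 had both metals within 1.8-fold. The median of the 490 was 0.93 in nickel and -0.19 in chromium against controls, and that of the 436 was -0.82 in nickel and 0.21 in chromium.

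**Figure D1:**
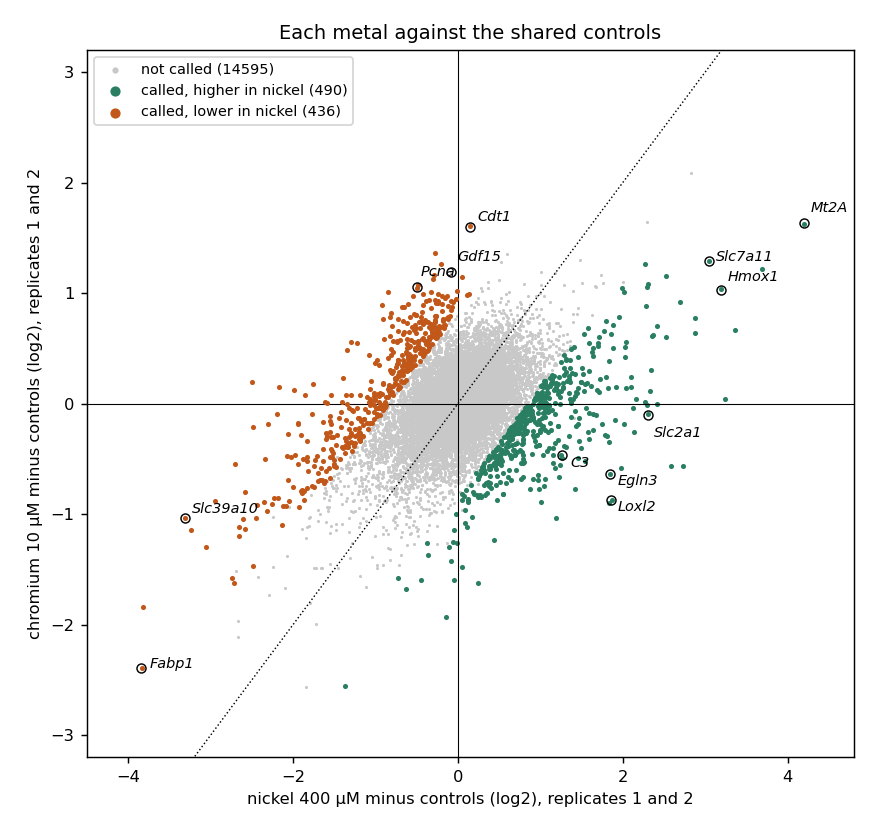
Each of 15521 probe sets by its log2 difference from controls in nickel 400 µM (horizontal) and in chromium 10 µM (vertical), replicates 1 and 2; the dotted line marks equal differences. The 490 green points were called higher in nickel than in chromium and the 436 orange points lower, and 12 genes of the text are ringed; both axes use the same controls.

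The calls from replicates 1 and 2 were then looked up in the other 2 pairs of arrays. Of the 926 probe sets, 784 had the same sign in pair 3, 757 in pair 4 and 727 in both, and 325 were past 1.8-fold the same way in both. The median size of the called differences was 1.05 on the log2 scale in pairs 1 and 2, where they were selected for size. In pairs 3 and 4 it was 0.68. For 621 of them the 4 nickel and 4 chromium arrays did not overlap, where 25.6% of all tested probe sets did not overlap either way. The calls already required a difference in replicates 1 and 2, so this count is no check of them. Across 15521 probe sets, the nickel minus chromium differences of pairs 1 and 2 correlated at 0.82 and those of pairs 3 and 4 at 0.79, while pairs across the 2 sets correlated at 0.39 to 0.60. These correlations are across probe sets that share arrays, and they describe the pairs without a test. The array of nickel replicate 4 carries a repeated microarray title, and its part in any result was not tested beyond leaving it out.

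Genes of glucose uptake and glycolysis that HIF-1 is known to control were higher in nickel than in chromium almost throughout the list. Of 19 members tested, 18 were higher and 0 lower at an adjusted p under 0.05, 13 of them past the stricter limits, and the median difference was 1.14 on the log2 scale against -0.06 over all genes. The list's median was 1.13, 1.14, 1.05 and 0.85 in pairs 1 to 4, and the 4 nickel arrays lay above the 4 chromium arrays for 16 members, as for 2021 of all 15521 probe sets tested. Against controls the list's median was 1.07 in nickel and -0.10 in chromium.

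The promoters of the 3 members with the largest differences are shown because the short sequence ACGTG is the known core of the HIF binding site. The 250 bases before the start of each gene were taken from RefSeq (build GRCr8), 5′ to 3′ on the gene's strand, with ACGTG on either strand in capitals. Slc2a1 lies at chr5:138002272-138002521, Gbe1 at chr11:22181026-22181275 and Pdk1 at chr3:77113264-77113513, all on the plus strand.
Slc2a1: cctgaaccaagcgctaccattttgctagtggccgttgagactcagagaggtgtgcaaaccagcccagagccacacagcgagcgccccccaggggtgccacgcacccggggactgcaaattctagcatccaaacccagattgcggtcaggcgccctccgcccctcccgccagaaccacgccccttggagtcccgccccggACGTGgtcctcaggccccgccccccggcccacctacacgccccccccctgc
Gbe1: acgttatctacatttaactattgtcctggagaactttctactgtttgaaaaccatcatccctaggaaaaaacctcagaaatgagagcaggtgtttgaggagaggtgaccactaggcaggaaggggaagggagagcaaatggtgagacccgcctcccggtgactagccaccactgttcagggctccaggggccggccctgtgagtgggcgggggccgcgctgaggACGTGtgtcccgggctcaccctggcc
Pdk1: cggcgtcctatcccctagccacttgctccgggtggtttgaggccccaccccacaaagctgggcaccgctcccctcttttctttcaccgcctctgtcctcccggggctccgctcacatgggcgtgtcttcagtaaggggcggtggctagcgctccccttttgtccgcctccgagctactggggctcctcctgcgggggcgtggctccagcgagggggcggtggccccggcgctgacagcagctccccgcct
Slc2a1 and Gbe1 hold 1 match each, 46 and 21 bases before the start, and Pdk1 holds none in this window. Counted on both strands, so that a palindromic CACGTG counts on each, ACGTG stood in 11 of the 18 list members with a promoter in the table (61.1%) and in 1820 of 7607 tested genes with one (23.9%). A match is a description of these letters and not a binding site. The list was drawn up from genes that HIF-1 is known to control, so its share describes the list and not the metals. The same holds for the share of the other hypoxia genes below.

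Slc2a1, which encodes the glucose transporter GLUT1, measured 11.27, 11.02, 10.46 and 10.38 on the log2 scale in the 4 nickel arrays (replicates 1 to 4). It measured 8.76, 8.73, 8.90 and 8.82 in chromium, and control means were 8.91, 8.78, 8.63 and 9.19. Every nickel array lay above every chromium and control array, and chromium and control arrays overlapped. In replicates 1 and 2 the difference was 2.40 (SE 0.08, 5.28-fold, adjusted p = 1.3e-08), and over the 4 pairs it was 1.98 ± 0.49 (SD, n = 4). Gbe1, the glycogen branching enzyme, measured 10.63, 10.48, 10.43 and 10.66 in nickel and 8.41, 8.31, 8.41 and 8.61 in chromium. Here chromium stood below its controls, which measured 9.22, 9.05, 9.24 and 9.76, and the difference of 2.19 (SE 0.07, adjusted p = 1.3e-08) was made of 1.42 in nickel and -0.77 in chromium against controls. Pdk1, the kinase that holds pyruvate back from oxidation in the mitochondrion, was higher by 2.16 (SE 0.09, adjusted p = 9.5e-08). It measured 10.68 to 11.27 in nickel and 8.95 to 9.07 in chromium. The glycolytic enzymes Pgk1 and Ldha were higher by 1.36 and 1.14 (SE 0.07 each), at levels of 12.89 to 13.64 in nickel and 11.79 to 12.52 in chromium.

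Other genes of the hypoxia response moved the same way. Of 22 tested, 19 were higher and 1 was lower, 14 were called higher, and the median was 1.24, with 1.29, 1.18, 1.06 and 1.05 in pairs 1 to 4. ACGTG stood in the promoters of 10 of the 18 that had one in the table (55.6%). Loxl2, a lysyl oxidase that cross-links collagen, had the largest difference of all called genes whose arrays did not overlap. It measured 8.62, 8.59, 7.68 and 7.68 in nickel and 6.22, 5.52, 5.60 and 5.48 in chromium, against control means of 6.92, 6.57, 6.59 and 6.77. The difference was 2.74 (SE 0.13, 6.67-fold, adjusted p = 1.2e-07), with nickel above and chromium below control in all 4 replicates. Ero1a, the oxidase that drives disulfide formation in the endoplasmic reticulum (ER), was higher by 2.42 (SE 0.07), and the vessel-relaxing peptide Adm by 2.25 (SE 0.10). Adm measured 11.42 to 11.78 in nickel and 9.44 to 10.00 in chromium. Bnip3, a mitochondrial protein listed here with apoptosis regulators, was higher by 1.89 (SE 0.08), with 12.45 to 12.87 in nickel and 10.53 to 10.71 in chromium. The exception was Hif1a itself, whose mRNA was lower in nickel by 0.65 (SE 0.08, adjusted p = 5.8e-05), with 10.85, 10.85, 11.24 and 11.09 in nickel and 11.41, 11.59, 11.85 and 11.82 in chromium. HIF-1α is known to be controlled at the level of the protein, which was not measured.

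Enzymes that use iron and 2-oxoglutarate, among them the hydroxylases that sense oxygen, were higher more often than lower. Of 35 tested, 19 were higher and 4 lower, with a median of 0.29. Egln3, a prolyl hydroxylase that acts on HIF-1α, measured 10.67, 10.60, 10.34 and 10.28 in nickel and 8.19, 8.10, 7.90 and 8.11 in chromium. Controls lay between, at 8.22 to 9.07, with chromium below the control mean of the same number in each replicate. The difference was 2.49 (SE 0.11, 5.60-fold, adjusted p = 1e-07). P4ha1, a collagen prolyl hydroxylase, was higher by 1.95 (SE 0.13), and the histone demethylase Kdm3a by 1.31 (SE 0.08). Jmjd6 was higher by 1.04 (SE 0.09), and unlike Kdm3a it also stood above control in chromium, by 0.42 (adjusted p = 0.0057), against 1.46 in nickel. Egln1, the main HIF prolyl hydroxylase, was higher by 1.73 (SE 0.09) in replicates 1 and 2, and its pair differences were smaller in replicates 3 and 4, at levels of 10.01 and 9.49 in nickel against 9.22 and 9.15 in chromium.

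Chaperones and folding enzymes of the ER were higher in nickel, by smaller steps. Of 30 tested, 24 were higher and 3 lower, with a median of 0.40, and in pairs 1 to 4 the median was 0.35, 0.43, 0.50 and 0.60. The distance came from both sides of control, at a median of 0.14 in nickel and -0.27 in chromium. P4hb, a protein disulfide isomerase that is also a subunit of collagen prolyl hydroxylase, measured 12.64, 12.70, 12.80 and 12.56 in nickel and 11.48, 11.38, 11.70 and 11.81 in chromium, a difference of 1.24 (SE 0.07, adjusted p = 7.6e-07). Fkbp11, a prolyl isomerase of secretory cells, measured 10.06 to 10.32 in nickel and 8.39 to 8.58 in chromium, with controls between them at 9.13 to 9.27. It was the list's largest difference, 1.76 (SE 0.10), followed by P4hb and by the co-chaperone Dnajb9 at 0.88 (SE 0.08). The members that went the other way included Herpud1, a part of ER-associated degradation, at -0.78 (SE 0.08) and Creld2 at -0.42 (SE 0.07). Herpud1 arrays overlapped when replicates 3 and 4 were included, with 10.08 in nickel and 10.07 in chromium in replicate 4.

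**Figure D2:**
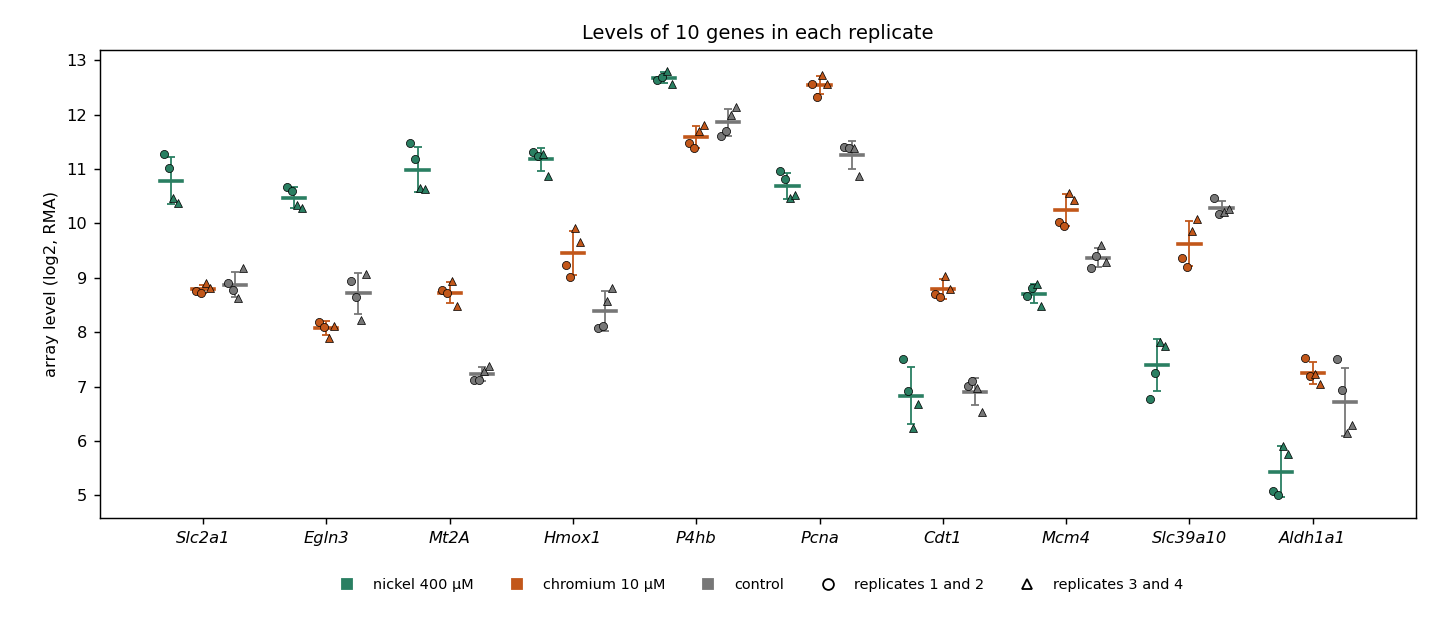
Array levels (log2, RMA) of 10 genes in nickel 400 µM, chromium 10 µM and controls; circles are replicates 1 and 2, triangles replicates 3 and 4, bars the mean and whiskers the SD of 4 (a control point is the mean of 2 arrays). In all 10 genes the 4 nickel arrays and the 4 chromium arrays do not overlap. For Slc2a1, Egln3, Mt2A, Hmox1, Slc39a10 and Aldh1a1 this was a condition of their choice. Slc2a1 chromium arrays sit among the controls, while Pcna and Cdt1 chromium arrays sit above them.

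Among genes that hold and move zinc, single members differed widely in both directions. Of 19 metallothioneins and zinc transporters tested, 6 were higher (31.6%) and 4 lower (21.1%), beside 21.2% and 31.5% of all genes. The list's median was 0.06. Mt2A, a metallothionein, which binds metal ions through its cysteines, measured 11.48, 11.18, 10.66 and 10.63 in nickel and 8.77, 8.73, 8.94 and 8.48 in chromium. Controls measured 7.12 to 7.38, so both metals stood above control in every replicate. In replicates 1 and 2 nickel stood 4.20 and chromium 1.63 above control. The difference between the metals was 2.58 (SE 0.15, 5.97-fold, adjusted p = 5.2e-07). The zinc exporter Slc30a1 was higher by 1.92 (SE 0.16), but its arrays overlapped because nickel replicate 4 measured 7.45, below the 7.57 of chromium replicate 3. The zinc importer Slc39a10 ran opposite, with 6.78, 7.25, 7.82 and 7.74 in nickel, 9.37, 9.20, 9.86 and 10.08 in chromium and 10.18 to 10.47 in controls. Its difference was -2.27 (SE 0.20, 4.84-fold, adjusted p = 8.6e-06), and against controls it was at -3.31 in nickel and -1.04 in chromium. The importer Slc39a4 was lower by 1.52 (SE 0.09) and Slc39a8, which also carries other divalent metals, was higher by 0.40 (SE 0.08).

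Among 22 genes of heme breakdown and iron handling, 8 were higher and 8 lower, with a median of -0.07. Hmox1, heme oxygenase 1, measured 11.31, 11.25, 11.28 and 10.87 in nickel and 9.23, 9.02, 9.92 and 9.66 in chromium, against controls of 8.07 to 8.82. Both metals were above control, by 3.19 and 1.03 in replicates 1 and 2, and the difference between them was 2.16 (SE 0.08, 4.46-fold, adjusted p = 3.6e-08). The iron exporter Slc40a1 and the transferrin receptor Tfrc, which bring iron out of and into the cell, were both higher, by 0.81 and 0.73 (SE 0.08 and 0.07). Fech, which puts iron into heme, was lower by 0.76 (SE 0.09).

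Genes of glutathione and of the NRF2 response split between the metals. Of 25 glutathione genes, 11 were higher and 4 lower in nickel, with a median of 0.03, and of 28 NRF2, thioredoxin and NADPH genes, 7 were higher and 13 lower, with a median of -0.16. Nqo1, a quinone reductase that NRF2 controls, measured 10.30, 10.61, 11.20 and 11.06 in nickel and 11.44, 11.42, 11.87 and 11.81 in chromium. Its difference was -0.97 (SE 0.09, adjusted p = 8.9e-06), with -0.28 in nickel and 0.70 in chromium against controls. In replicates 3 and 4 nickel lay above its controls, which measured 10.84 and 10.52, so that over the 4 replicates nickel minus control was 0.09 ± 0.44 (SD, n = 4). The aldehyde reductase Akr7a3 was lower by 1.29 (SE 0.07), at -0.73 in nickel and 0.56 in chromium against controls, although nickel replicates 3 and 4, at 10.14 and 10.11, lay beside their controls at 10.04 and 10.08. The bile canalicular exporter Abcc2 was lower by 1.23 (SE 0.14), at 8.68 to 9.86 in nickel and 10.12 to 11.13 in chromium. Its relative Abcc1, which exports glutathione conjugates, was higher by 1.11 (SE 0.08), at 9.10 to 9.96 in nickel and 8.49 to 8.88 in chromium. Gclm, a subunit of the enzyme that starts glutathione synthesis, was higher by 0.67 (SE 0.08), Ggct, which breaks down gamma-glutamyl dipeptides, by 1.15 (SE 0.08), and the aldehyde dehydrogenase Aldh3a1 3.49-fold, at 6.57 to 8.14 in nickel and 4.96 to 6.51 in chromium.

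Genes of DNA replication were mostly lower in nickel than in chromium. Replication begins with the loading of the MCM helicase on origins by the licensing factors, after which the clamp, its loader and the polymerases copy the DNA. Of 20 licensing and MCM genes, 2 were higher and 15 lower in nickel, 10 of them called, and of 34 replication fork genes 0 were higher and 31 lower, 14 of them called. Their medians were -0.88 and -0.80, against -0.06 over all genes. In pairs 1 to 4 the medians were -0.88, -0.83, -1.41 and -1.10 for licensing and -0.87, -0.80, -1.27 and -1.12 for the fork. For 15 licensing and 29 fork members the 4 nickel arrays lay below the 4 chromium arrays, as for 12.5% of all probe sets tested. Most of the distance was a rise in chromium, with medians of 0.70 and 0.67 above control in replicates 1 and 2, beside -0.05 and -0.28 in nickel.

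Cdt1, the licensing factor that brings the MCM helicase to origins, measured 7.50, 6.92, 6.24 and 6.69 in nickel and 8.70, 8.64, 9.04 and 8.80 in chromium. Controls were 7.02, 7.11, 6.97 and 6.54, so the nickel arrays lay around them and the chromium arrays all lay above. The difference was -1.46 in replicates 1 and 2 (SE 0.13, adjusted p = 9.3e-06) and -1.96 ± 0.68 over the 4 pairs (SD, n = 4). Pcna, the sliding clamp of the polymerases, measured 10.96, 10.82, 10.47 and 10.52 in nickel, 12.56, 12.33, 12.73 and 12.56 in chromium and 10.88 to 11.40 in controls. It was lower in nickel by 1.55 (SE 0.08, adjusted p = 1.7e-07), with -0.50 in nickel and 1.05 in chromium against controls. Rfc3, a subunit of the clamp loader, was lower by 1.51 (SE 0.07), at 7.97 to 8.09 in nickel and 9.31 to 9.64 in chromium. The helicase subunits Mcm4 and Mcm8 were lower by 1.25 (SE 0.08) and 1.22 (SE 0.12). Subunits of the polymerases that copy the leading and lagging strands stood lower too, Pole2 by 1.18, Pole by 1.14 and Pold1 by 0.67 (SE 0.09, 0.08 and 0.09). Lig1, the ligase that joins Okazaki fragments, and Rpa2, which covers single-stranded DNA, were near control in nickel (-0.01 and 0.13) and above it in chromium (0.79 and 0.99). The origin recognition subunits Orc3 and Orc5 were the 2 licensing genes that were higher in nickel, by 0.46 (SE 0.11) and 0.30 (SE 0.09).

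The known E2F site, searched as TTTCCCGC, TTTGGCGC, TTTCGCGC and TTTGCCGC on both strands, forms that can overlap, stood in the 250 bases before the start of 11 of the 50 licensing and fork genes found in the promoter table (22.0%). Of all tested genes with a promoter, 271 held it (3.56%). Pcna, Rfc3 and Cdt1, the 3 members with the lowest differences, hold none in this window. No HIF glycolysis gene of the 18 held it, a list too short to tell from a share of 3.56%. ACGTG stood in 12 of the 50 (24.0%), beside 23.9% of all tested genes. These shares describe the genes that the lists hold and not an effect of either metal.

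The genes that supply nucleotides, time the cell cycle and divide the cell were mostly lower in nickel too. Of 25 genes of G1/S and nucleotide supply, 1 was higher and 19 were lower (median -0.75), and of 44 genes of mitosis and cytokinesis, 1 was higher and 37 were lower (median -0.69). In pairs 3 and 4 the mitosis median was -0.98 and -0.92, beside -0.69 and -0.69 in pairs 1 and 2. Against controls in replicates 1 and 2, the G1/S list had a median of -0.38 in nickel and 0.37 in chromium. For mitosis these medians were -0.21 and 0.40. Rrm1, the large subunit of ribonucleotide reductase, measured 8.23, 8.49, 8.05 and 8.29 in nickel and 9.96, 9.84, 9.83 and 9.93 in chromium, a difference of -1.53 (SE 0.12, adjusted p = 4.7e-06). Its chromium arrays all stood above controls, at 8.63 to 9.04, and its nickel arrays all stood below. Thymidylate synthase (Tyms) was lower by 1.48 (SE 0.10) and the retinoblastoma relative Rbl1 by 1.19 (SE 0.09). Among mitotic genes the kinetochore protein Spc24 was lower by 1.51 (SE 0.08), the centriole kinase Plk4 by 1.16 (SE 0.10) and the condensin subunit Ncaph by 1.13 (SE 0.08). Ncaph differed by -1.14 ± 0.04 over the 4 pairs (SD, n = 4). Outside the lists, Esco2, which joins sister chromatids, Tcf19 and the PCNA-binding Pclaf were lower by 1.85, 1.83 and 1.68 (SE 0.10, 0.09 and 0.10). That their 4 and 4 arrays did not overlap was a condition of naming them and is no result. Against controls Pclaf was at -0.91 in nickel and 0.77 in chromium, and Esco2 at -0.85 and 1.01.

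In replicates 1 and 2, genes of DNA repair were lower in nickel more often than higher, as were all genes (31.5% lower, 21.2% higher). Of 28 genes of homologous recombination and Fanconi anemia, 2 were higher and 18 lower (64.3%). Their median was -0.43, and -0.82 and -0.69 in pairs 3 and 4. Of 36 genes of excision and mismatch repair and end joining, 7 were higher (19.4%) and 16 lower (44.4%), with a median of -0.16. That list's median was -0.09 and -0.07 in pairs 3 and 4. The fit on replicates 3 and 4 found 8 of its genes higher and 8 lower, and 1 and 18 of the recombination list. The difference between these lists was not tested. Blm, a helicase that resolves recombining strands, measured 6.44, 6.71, 6.48 and 6.85 in nickel and 7.99, 7.90, 7.76 and 7.81 in chromium, a difference of -1.37 (SE 0.11). The Fanconi ubiquitin enzyme Ube2t and the core complex member Fancb were lower by 1.32 (SE 0.09) and 1.27 (SE 0.17). All 3 were above control in chromium, by 0.79, 0.89 and 0.83. In the other repair list the glycosylase Mpg, which removes alkylated bases, was higher by 0.87 (SE 0.11), and the end-joining factors Xrcc4 and Nhej1 stood apart from each other, at 0.73 (SE 0.11) and -1.05 (SE 0.10).

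Of 21 p53 target genes, 4 were higher and 9 lower, with a median of -0.10 in replicates 1 and 2 and pair medians of -0.67 and -0.50 in pairs 3 and 4. Pidd1, which links p53 to caspase activation, measured 6.36, 6.49, 6.19 and 6.73 in nickel and 7.62, 7.77, 7.68 and 7.57 in chromium, a difference of -1.27 (SE 0.07, adjusted p = 6.4e-07). The repair factor Ddb2 was lower by 0.95 (SE 0.10), with chromium above control by 0.64. Ccng2, a cyclin found in arrested cells, was higher by 0.78 (SE 0.11), at 9.19 to 9.95 in nickel and 8.04 to 8.59 in chromium. Gdf15, a secreted stress factor in the ATF4 list, measured 8.06, 8.29, 7.45 and 7.67 in nickel and 9.49, 9.42, 9.89 and 10.49 in chromium. The difference was -1.28 (SE 0.28, adjusted p = 0.0031), with -0.09 in nickel and 1.19 in chromium against controls.

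**Figure D3:**
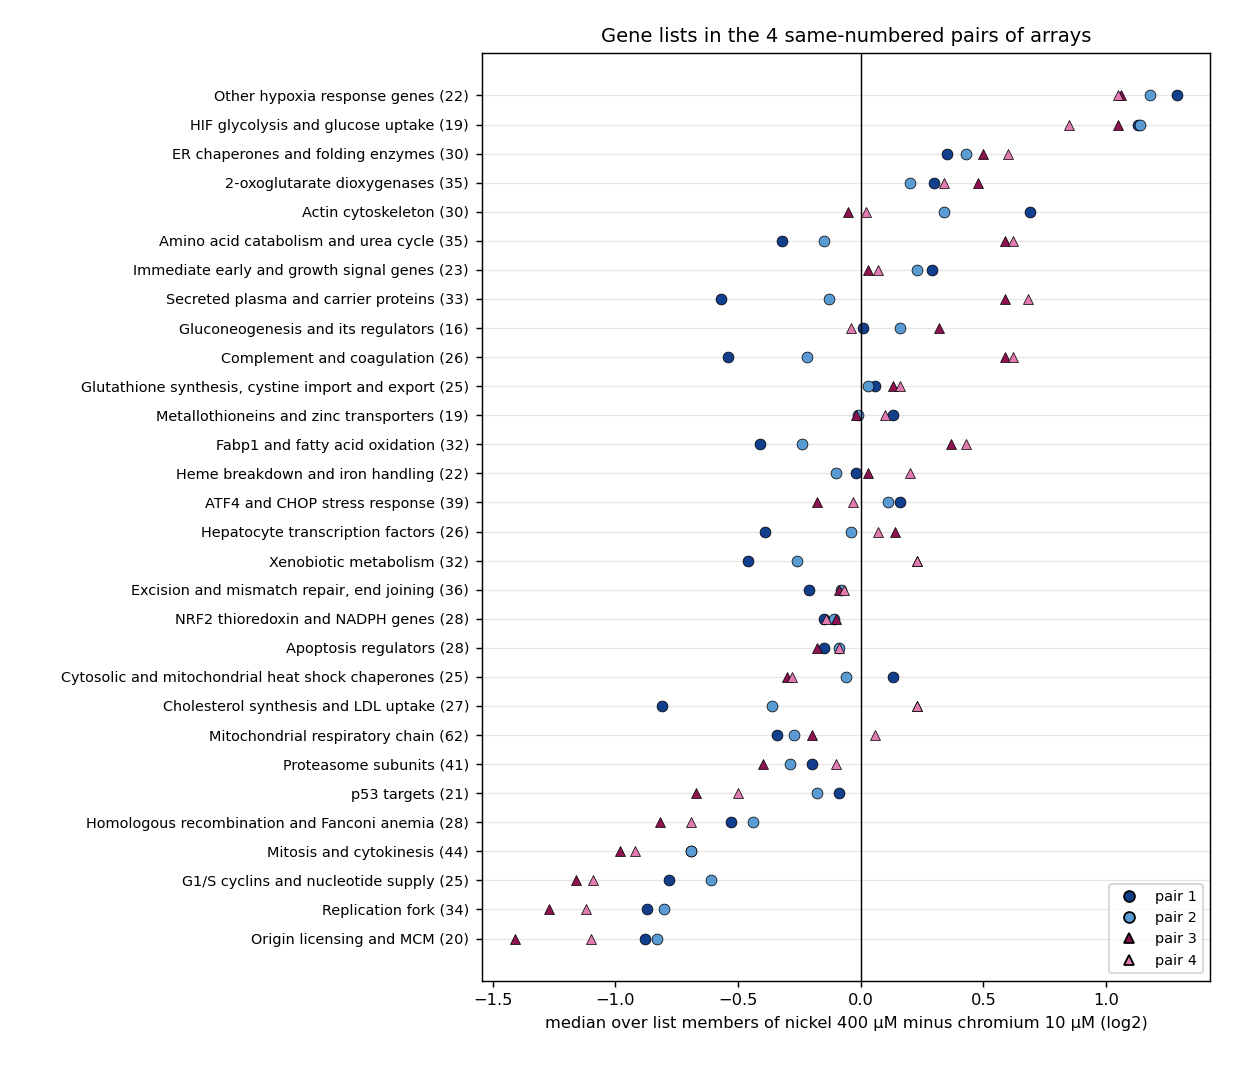
Median nickel 400 µM minus chromium 10 µM difference (log2) of each gene list in each same-numbered pair of arrays, with the number of genes tested in brackets; circles are pairs 1 and 2, triangles pairs 3 and 4. Hypoxia lists lie at 0.85 to 1.29 and replication fork and licensing at -0.80 to -1.41 in every pair, whereas plasma proteins, complement, cholesterol, fatty acid, amino acid and xenobiotic lists lie below 0 in pairs 1 and 2 and above 0 in pairs 3 and 4.

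Genes of liver function gave opposite answers in the 2 sets of replicates. In replicates 1 and 2, 16 of 33 plasma and carrier proteins were lower in nickel than in chromium and 2 higher. Among complement and coagulation genes 15 of 26 were lower and 4 higher, in fatty acid oxidation 19 of 32 and 1, and in amino acid catabolism 17 of 35 and 5. In cholesterol synthesis 18 of 27 were lower and in xenobiotic metabolism 19 of 32, with 0 higher in either. The same fit on replicates 3 and 4 in the order of the titles found 19 plasma proteins higher and 1 lower, 15 complement genes higher and 0 lower, 18 fatty acid genes higher and 3 lower, and 23 amino acid genes higher and 1 lower. It found 9 cholesterol genes higher and 1 lower and 10 xenobiotic genes higher and 1 lower, where 19.4% of all probe sets were higher and 14.0% lower. In that fit the glycolysis list had 13 higher and 0 lower, the licensing list 2 and 17, and the fork list 1 and 28. The difference between the 2 sets of replicates was not tested.

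In the medians of differences from control, it was nickel that changed between the sets. Levels of some members also shifted in controls and in chromium. The coagulation gene Serpind1 measured 8.19, 7.82, 6.98 and 7.09 in controls and 6.96, 6.81, 5.85 and 6.02 in chromium. Proc, of the same list, stayed at 8.73 to 8.98 in controls and 8.28 to 8.47 in chromium. The median of the plasma proteins was -1.13 and -0.73 in nickel replicates 1 and 2, and -0.01 and 0.07 in nickel replicates 3 and 4. In chromium it was -0.68, -0.60, -0.55 and -0.51 in replicates 1 to 4. Complement and coagulation genes showed the same layout, with -1.27, -1.02, -0.19 and -0.11 in nickel and -0.63, -0.65, -0.80 and -0.64 in chromium. For amino acid catabolism the medians were -1.05, -0.70, 0.06 and 0.08 in nickel and -0.73, -0.54, -0.66 and -0.60 in chromium. In contrast, glycolysis and hypoxia lists in nickel and replication lists in chromium kept their side of control in all 4 replicates.

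**Figure D4:**
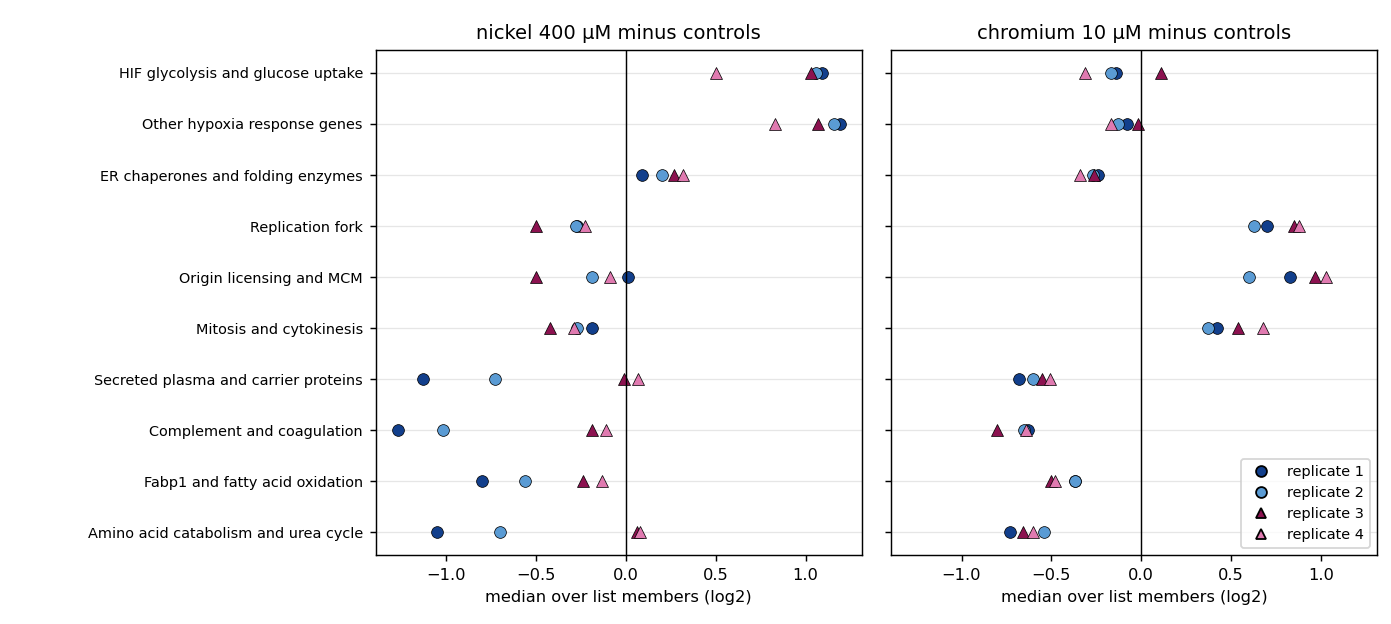
Median log2 difference from the controls of the same replicate number for 10 gene lists, nickel 400 µM in the left panel and chromium 10 µM in the right; both panels use the same controls. In nickel the plasma protein list sits at -1.13 and -0.73 in replicates 1 and 2 and at -0.01 and 0.07 in replicates 3 and 4, while in chromium it sits between -0.68 and -0.51 throughout.

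Single liver genes showed how wide this gap was. Ttr, which carries thyroid hormone and retinol binding protein, measured 8.73, 9.42, 11.42 and 11.44 in nickel and 10.68, 10.40 and 10.76 in chromium replicates 1, 2 and 4, with controls at 11.74 to 12.05. Chromium replicate 3, the highest of the 4, lay 0.42 below nickel replicate 3. Nickel lay below chromium in replicates 1 and 2, by 1.46 (SE 0.19, adjusted p = 0.00011), and above it in replicates 3 and 4, by 0.68 in the fourth. Fabp1, the liver fatty acid binding protein, measured 5.28, 5.53, 9.13 and 9.68 in nickel, 6.78, 6.92, 8.74 and 8.76 in chromium and 9.13, 9.35, 11.21 and 11.05 in controls. Its level differed between the sets of replicates in controls too, and its difference was -1.44 (SE 0.11) in replicates 1 and 2. Serpind1 (heparin cofactor II) and Acsl1, which activates fatty acids, were lower by 1.54 (SE 0.12) and 1.47 (SE 0.09) and were higher in nickel than in chromium in pairs 3 and 4. The liver transcription factor Hnf4a measured 8.84, 9.67, 10.61 and 10.50 in nickel and 10.02, 10.07, 9.88 and 10.10 in chromium, and the decarboxylase Ddc 5.57, 6.26, 7.63 and 7.53 in nickel and 6.60, 6.62, 5.88 and 6.18 in chromium.

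Some liver genes kept their direction in all 4 pairs. Complement C3 was higher in nickel, at 10.79, 10.79, 10.15 and 10.12 against 9.06, 9.08, 8.92 and 8.88 in chromium, a difference of 1.72 (SE 0.08, adjusted p = 1.2e-07). The fetal plasma protein Afp was lower, at 6.79, 7.50, 8.10 and 8.43 against 9.40, 9.20, 9.11 and 9.02 in chromium, by 2.15 (SE 0.19). Coagulation factor F5, the tyrosine enzymes Hpd and Tat and the glycoprotein Ahsg were higher, by 0.68, 0.49, 0.82 and 0.85 (SE 0.13, 0.13, 0.08 and 0.07). F5, Hpd and Tat were below control in chromium by 1.37, 1.31 and 0.94. In the same replicates 1 and 2, F5 and Hpd were below control in nickel too, at -0.69 and -0.82. Hao1, a peroxisomal oxidase, was lower by 1.09 (SE 0.11), with both metals below control. The lipoprotein Apoc2, the retinal dehydrogenase Aldh1a1 and the isoprenoid enzyme Idi1 were lower by 1.63, 2.32 and 1.68 (SE 0.13, 0.10 and 0.20). Aldh1a1 measured 5.09, 5.00, 5.91 and 5.76 in nickel and 7.53, 7.20, 7.23 and 7.05 in chromium. The keratins Krt8 and Krt18 of the hepatocyte cytoskeleton were higher by 1.16 and 1.14 (SE 0.10 and 0.11). In drug metabolism Ugt2b7 was lower by 1.42 (SE 0.15) with chromium above control by 0.99, and Ugt2b10 was lower by 1.76 (SE 0.17), with pair differences that nearly closed in replicate 4, at 10.36 in nickel and 10.53 in chromium.

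Differences in genes of the actin cytoskeleton also belonged mainly to replicates 1 and 2, and those of early growth responses did so in part. Of 30 actin genes 23 were higher in nickel and 2 lower, with a median of 0.51, whereas the pair medians in replicates 3 and 4 were -0.05 and 0.02 and the fit on them found 5 higher and 9 lower. Acta2, which is both a member of the list and a stromal marker, had pair differences of 0.92, 0.55, 0.01 and 0.02, and its part in this result was not tested. Zyx, a focal adhesion protein, measured 11.25, 10.65, 9.25 and 8.70 in nickel and 9.05, 8.63, 8.66 and 8.46 in chromium, a difference of 2.12 (SE 0.14) in replicates 1 and 2. Of 23 immediate early and growth signal genes, 12 were higher and 4 lower, and 7 and 5 in the fit on replicates 3 and 4. In that fit 19.4% of all probe sets were higher and 14.0% lower. The list's median was 0.29, 0.23, 0.03 and 0.07 in pairs 1 to 4. The matrix protein Ccn1 measured 8.76, 7.98, 6.69 and 6.31 in nickel and 6.76, 6.26, 7.16 and 6.76 in chromium, so its sign turned between the sets. The transcription factor Egr1 turned the other way, at 7.64, 7.86, 9.90 and 9.83 in nickel and 9.09, 8.41, 8.73 and 8.68 in chromium. Dusp1, a phosphatase that ends MAP kinase signals, and Emp1, an epithelial membrane protein, were higher in all 4 pairs, by 2.11 (SE 0.15) and 2.70 (SE 0.12) in replicates 1 and 2.

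Stress genes of the ATF4 and CHOP response were 16 higher and 5 lower of 39, with a median of 0.13. Atf3, a transcription factor of this response, measured 9.96, 8.93, 6.45 and 7.21 in nickel and 7.15, 6.79, 6.49 and 6.27 in chromium, a difference of 2.47 (SE 0.29) in replicates 1 and 2. The cystine importer Slc7a11 measured 9.56, 9.24, 6.02 and 6.09 in nickel and 7.75, 7.55, 6.20 and 6.01 in chromium, with controls at 5.00 to 6.62. Both genes were well above chromium in nickel replicates 1 and 2 and among the chromium values in replicate 3. Nupr1, a small chromatin protein of stressed cells, differed in all 4 pairs, at 13.08, 13.01, 13.28 and 13.45 in nickel and 11.40, 11.50, 11.36 and 11.58 in chromium, by 1.59 (SE 0.09, adjusted p = 4.6e-07). Of 25 cytosolic and mitochondrial heat shock chaperones, 8 were higher and 5 lower, with a median of 0.03, and 1 higher and 8 lower in the fit on replicates 3 and 4. Of 28 apoptosis regulators, 7 were higher and 11 lower.

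Genes of the respiratory chain and the proteasome differed by small steps. Of 62 genes of the mitochondrial respiratory chain, 0 were higher and 46 lower in nickel, none of them called, with a median of -0.31 and pair medians of -0.34, -0.27, -0.20 and 0.06. The fit on replicates 3 and 4 found 3 higher and 6 lower, a smaller share lower than the 14.0% of all probe sets. Sdhd of complex II, Cyc1 of complex III and Ndufv1 of complex I were lower by 0.78, 0.75 and 0.70 (SE 0.07, 0.07 and 0.08). Of 41 proteasome genes, 1 was higher and 23 lower (median -0.23), and 1 and 17 in the fit on replicates 3 and 4. The lowest were immunoproteasome parts, the activator subunit Psme2 and the catalytic subunits Psmb8 and Psmb10, by 1.23, 1.21 and 0.95 (SE 0.10, 0.07 and 0.08). These 3 were below control in nickel, by 1.29, 1.35 and 0.79, and in chromium they were at -0.06, -0.15 and 0.16. The nickel and chromium arrays of Psme2 overlapped, in replicate 4.

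The metals did not differ past the threshold in 2 genes that the study's text names. The autophagy receptor Sqstm1 measured 12.38 to 12.60 in nickel and 12.54 to 12.61 in chromium, a difference of -0.07 (SE 0.07, adjusted p = 0.43), and both metals were above control, by 0.56 and 0.63. The heat shock co-chaperone Dnajb1 differed by 0.10 (SE 0.11, adjusted p = 0.47), with 0.65 and 0.56 above control in nickel and in chromium. A difference that missed the threshold does not show that the metals acted alike on these genes.

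The remaining genes among the 15 largest differences on each side whose arrays did not overlap have varied roles. Higher in nickel were Stbd1, which binds glycogen, by 2.26 (SE 0.10), the cyclin-dependent kinase Cdk14 by 2.22 (SE 0.09), Ndrg2 by 2.20 (SE 0.13) and the mitochondrial adenylate kinase Ak4 by 2.18 (SE 0.07). In replicates 1 and 2 Cdk14 was above control by 1.19 in nickel and below it by 1.03 in chromium. Over the 4 replicates its difference from control was 0.72 ± 0.55 in nickel and -1.15 ± 0.14 in chromium (SD, n = 4). Lower in nickel were the chemokine scavenger Ackr4 by 2.28 (SE 0.22) and the racemase of branched fatty acids Amacr by 1.93 (SE 0.19). So were the ADP-ribosyltransferase Parp10 by 1.86 (SE 0.08) and the sulfotransferase Sult1c2a by 1.81 (SE 0.09). The thioesterase Acot4 was lower by 1.78 (SE 0.08) and Mreg (melanoregulin) by 1.65 (SE 0.12). These values are from replicates 1 and 2. In pairs 3 and 4 the differences were -0.33 and -0.42 for Ackr4, and -0.68 and -0.31 for Amacr. They were -0.95 and -0.83 for Parp10, -1.33 and -0.76 for Acot4, and -1.55 and -1.55 for Mreg. Against controls Mreg was at -0.28 in nickel and 1.36 in chromium.

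The lower concentrations place these differences on a scale. Slc2a1 minus control, as mean ± SD over 4 replicates, was -0.14 ± 0.29 at 40 µM, 1.08 ± 0.28 at 140 µM and 1.91 ± 0.53 at 400 µM nickel, and it was -0.22 ± 0.31, -0.16 ± 0.08 and -0.07 ± 0.27 at 0.275, 1 and 10 µM chromium. Pcna was 0.03 ± 0.21, -0.39 ± 0.28 and -0.57 ± 0.25 over the nickel concentrations and 0.15 ± 0.38, 0.35 ± 0.20 and 1.28 ± 0.32 over those of chromium. Thus Slc2a1 left control level in nickel from the middle concentration on and stayed at it in chromium, and Pcna moved apart at both upper concentrations. Hmox1 was 0.29 ± 0.05, 1.23 ± 0.32 and 2.78 ± 0.54 in nickel and 0.22 ± 0.18, 0.43 ± 0.04 and 1.06 ± 0.23 in chromium, and so its mean was highest at the highest concentration of each metal. These are descriptions in the order of the titles, without a test.

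**Figure D5:**
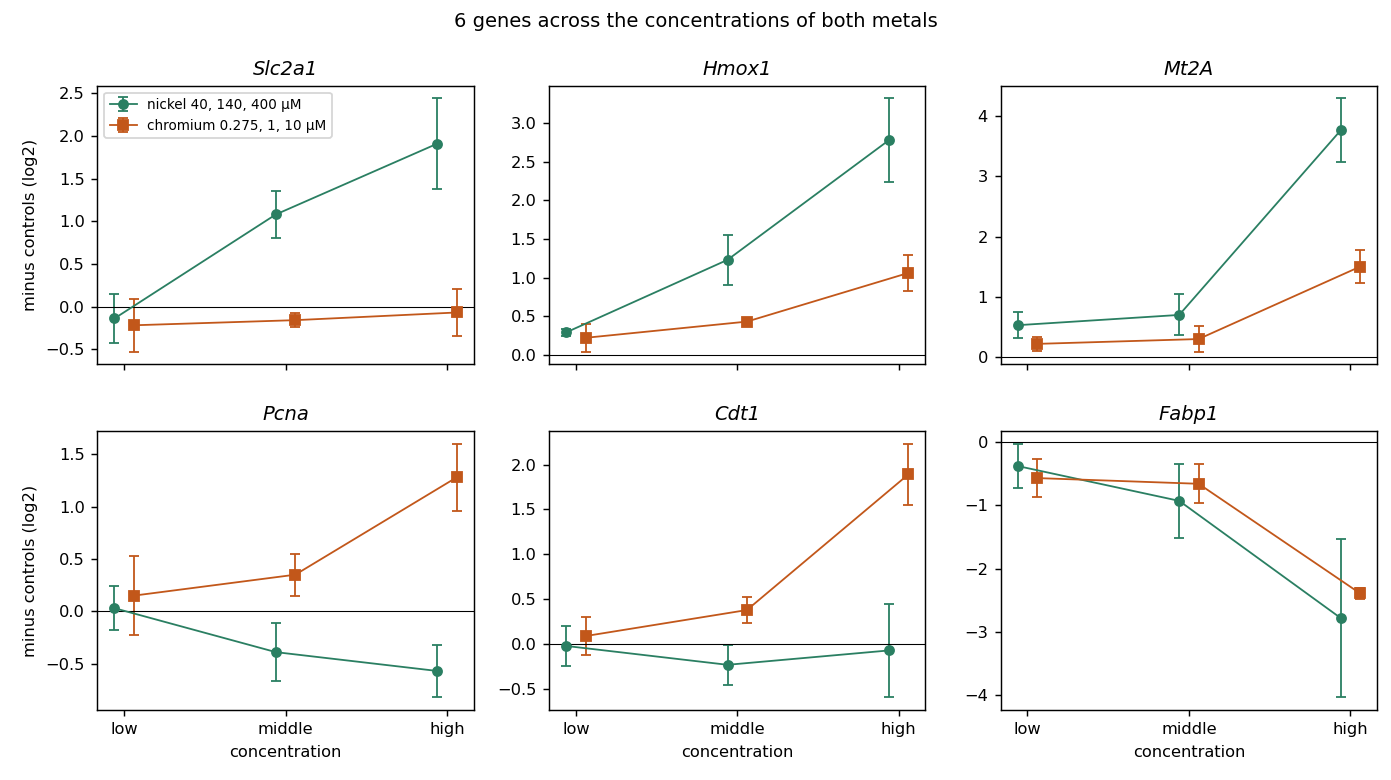
Log2 difference from the controls of the same replicate number for 6 genes at the low, middle and high concentration of nickel (40, 140 and 400 µM) and chromium (0.275, 1 and 10 µM); points are means and whiskers SDs of 4 replicates. Slc2a1 reaches 1.91 at the highest nickel and stays at -0.07 at the highest chromium, and Fabp1 in nickel has the widest spread, 1.25.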

How the data were processed

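Per the labels and the study's methods, RNA of H4-II-E-C3 cells exposed for 24 h was hybridised to Affymetrix rat whole-genome arrays, and the authors made log2 values with RMA, which adjusts background, normalizes between arrays and summarizes each probe set; the submitters' processing notes name RMA and Partek. The deposited table holds these log2 values for 31099 probe sets on 44 arrays, with array medians of 5.93 to 6.00. RMA compresses small differences of dim probe sets, and a single array gives no counting error, so the number of arrays limits the precision.

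The 57 array controls and the dimmer 15521 of the rest, by the mean over 44 arrays, were left out, which kept the brighter 15521 probe sets. Of 31042 probe sets, 20826 name 1 gene in the platform annotation, 436 several and 9780 none, and none was named from several. The test was limma 3.58.1 in R 4.3.3 (lmFit, eBayes, two-sided, Benjamini-Hochberg over all 15521) on replicates 1 and 2 of 7 conditions, with the replicate number as a block and both controls of each number averaged, since the study's methods fit dose and batch. It had 6 residual and 4.85 prior degrees of freedom. Same-numbered nickel and chromium arrays had deviations that correlated at 0.27, -0.01, 0.23 and 0.22, so the numbers were not shown to pair the arrays. Calls used an FDR of at most 0.001 and 1.8-fold, and lists an adjusted p under 0.05 with 1 probe set per gene. On simulated data for this comparison with 200 of 15521 probe sets changed, 92.0% of 2-fold and 100.0% of 4-fold changes were called, with 0 false calls. At an adjusted p under 0.05, 10 unchanged probe sets passed. The simulated arrays had independent errors and no differences between replicates, so they cannot speak to the distance between the 2 sets of replicates.

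Genes named are the 15 largest called differences on each side whose 4 and 4 arrays did not overlap, up to 3 members at each end of a list at an adjusted p under 0.05, and a list of genes from the study's text and supplementary gene tables, less some of these for length. The members and lists were chosen with earlier results of these data known. Other filters, blocks, variance models and sets of arrays were tried. Tables and figures used Python 3.11.15, pandas 2.3.3, NumPy 2.4.6 and matplotlib 3.10.9.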

Additional observations from a re-analysis of the deposited data

Results flagged for a closer look

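In 234 groups of 4 arrays (117 genes in nickel and in chromium), 4 held an array far from the other 3 by Dixon's test, and chance alone gives about 1 in 20. Hmox1 in nickel replicate 4 measured 10.87, where the other nickel arrays measured 11.25 to 11.31. Rfc3 in nickel replicate 3 measured 7.97, beside 8.08 to 8.09 in the others. Loxl2 in chromium replicate 1 measured 6.22, beside 5.48 to 5.60 in the others. Fancb in chromium replicate 2 measured 6.93, beside 7.01 to 7.02 in the others. In all 4 genes the nickel and chromium arrays did not overlap with these arrays included.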

How the results depend on the processing

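With 490 probe sets called higher in nickel than in chromium and 436 lower, the 4 replicates in the order of the titles gave 371 and 290 with the replicate block, and 311 and 268 without it (2484 higher and 2354 lower at an adjusted p under 0.05). In replicates 1 and 2 alone, dropping the replicate block gave 441 and 408. With the titles as they stand, 4 replicates gave 0 and 0 calls with or without the block, and at an adjusted p under 0.05 297 higher and 379 lower with it and 0 and 0 without it. The nickel and chromium arrays of replicates 1 and 2, fitted without the other conditions, gave 33 and 3 calls (2301 and 2389 at an adjusted p under 0.05), with fewer residual degrees of freedom. An unmoderated variance gave 234 and 229 calls. The fit on replicates 3 and 4, chosen after seeing the data, gave 570 and 345 calls and 3009 higher and 2169 lower at an adjusted p under 0.05.

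Leaving out 1 array of replicates 1 and 2 gave 358 to 503 higher and 315 to 624 lower calls, and 2725 to 3289 higher and 3119 to 3785 lower at an adjusted p under 0.05. Leaving out 1 of 4 replicates gave 347 to 455 higher and 258 to 314 lower calls (290 without replicate 1), and 2805 to 3487 higher and 2577 to 3641 lower (2618 without replicate 3) at an adjusted p under 0.05. Without nickel replicate 4, 4 replicates gave 388 and 332 calls.

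Of 117 genes, 109 kept direction and threshold with 4 replicates and the block, 93 in replicates 3 and 4, and 117 under both other filters. With 4 replicates, with or without the block, Ddc was at 0.43 and Egr1 at 0.08, the opposite sign of replicates 1 and 2. Leaving out replicate 1 of 4 turned Ttr (0.04), Ddc (0.91), Hnf4a (0.24) and Egr1 (0.60), leaving out replicate 2 turned Ddc (0.69) and Egr1 (0.29), leaving out replicate 4 turned Ddc (0.12), and leaving out nickel replicate 4 turned Ddc (0.14). In replicates 3 and 4 alone the differences were -0.05 for Slc7a11, 0.55 for Ttr, 0.65 for Fabp1, 0.55 for Serpind1, 0.58 for Acsl1, 1.55 for Ddc, 0.06 for Mvd, 0.57 for Hnf4a, -0.46 for Ccn1 and 1.17 for Egr1. The cause was not tested.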
